A study of Mus musculus with 8 samples.

Results

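MHC class II antigen presentation genes were followed across tdTomato-labeled TN SST neuron libraries of 8 mice, 4 females and 4 males. The 10 genes were named by symbol, *Cd74*, *H2-Aa*, *H2-Ab1*, *H2-Eb1*, *H2-DMa*, *H2-DMb1*, *H2-DMb2*, *H2-Oa*, *Ciita* and *Ctss*, out of 35968 genes to which transcripts were joined and 15194 genes with enough counts to be tested. They were chosen because their levels were known to spread widely between these mice, so that spread is given here as a description and is not tested. All 10 passed the filter on low counts.

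The study asked whether SST neurons of the tuberal nucleus (TN), a feeding-related part of the lateral hypothalamus, can respond to estrogens and to signals from adipose tissue. Every mouse, female or male, was a heterozygous *Sst*tm2.1(cre)Zjh/J/+ (*Sst-Cre*) mouse on a C57BL/6J background that received AAV2-flex-tdTomato, a virus with a Cre-dependent red fluorescent protein, in the TN on both sides. Females were cycling and males had intact gonads. Red cells were sorted by flow cytometry from dissociated TN tissue and each mouse gave 1 bulk RNA library (Flow-Seq). Sex was the only labeled factor that differed between the groups. The label depends on *Sst*-driven Cre and on the spread of the virus. Live, nucleated, strongly red cells were gated, with no gate against immune cells described, and no unsorted library was analysed here. Mouse age was not given in the labels.

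Class II molecules show peptides from outside the cell to helper T cells. An alpha and a beta chain assemble around the invariant chain, the protease cathepsin S trims that chain to a short peptide, and H2-DM exchanges the peptide for an antigen under the restraint of H2-O. In the brain these genes are known from microglia and border macrophages that have met interferon gamma, and from dendritic cells and B cells.

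To see which promoters carry the motifs of the class II transcription complex, sequence before the start site was read from RefSeq (GRCm38.p6) for 7 of the 10 genes. Motifs were looked for on both strands within 250 bases upstream of the start and did not overlap one another. They were GATTGG, the core of the Y box bound by NF-Y, AACNGATG, a part of the X box bound by RFX, and GAAA-NN-GAAA, the core of the response element for interferon regulatory factors. Shown are the 150 bases before the start of a classical alpha chain gene, a classical beta chain gene and the cathepsin S gene, with motif matches in capitals, because the classical chains and *Ctss* parted in the mice described next. They lie at chr17:34287824-34287973 on the minus strand for *H2-Aa*, chr17:34305717-34305866 on the plus strand for *H2-Eb1* and chr3:95526636-95526785 on the plus strand for *Ctss*.
*H2-Aa*: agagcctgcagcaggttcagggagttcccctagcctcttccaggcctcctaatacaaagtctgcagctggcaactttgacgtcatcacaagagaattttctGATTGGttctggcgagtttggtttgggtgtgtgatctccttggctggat
*H2-Eb1*: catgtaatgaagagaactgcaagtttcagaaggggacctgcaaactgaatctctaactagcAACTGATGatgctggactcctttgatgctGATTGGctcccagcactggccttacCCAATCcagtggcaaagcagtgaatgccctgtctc
*Ctss*: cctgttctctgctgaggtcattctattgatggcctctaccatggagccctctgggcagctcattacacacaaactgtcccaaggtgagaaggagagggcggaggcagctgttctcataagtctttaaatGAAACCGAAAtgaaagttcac

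In *H2-Aa* the Y box core lay 49 to 44 bases before the start. *H2-Eb1* held the X box part at 89 to 82 bases and the Y box core at 60 to 55 bases, with a second copy on the other strand at 35 to 30 bases. In *Ctss* no Y box core was found in this window, the interferon response core lay 21 to 12 bases before the start, and an X box part lay farther out, at 207 to 200 bases. Among the 7 searched promoters, GATTGG was in 5 (*H2-Aa*, *H2-Eb1*, *H2-DMb1*, *H2-DMb2* and *H2-Oa*), AACNGATG in 4 (*H2-Eb1*, *H2-DMb1*, *H2-DMb2* and *Ctss*) and GAAA-NN-GAAA in 1 (*Ctss*). Across all 32851 promoters the shares with a match were 14.6%, 1.98% and 2.98%. A match describes letters and was not tested as a binding site. The patterns were fixed strings, so a promoter without a match, such as *H2-Aa* for AACNGATG, may still hold a variant of that box. The counts of matches also take no account of position or of spacing between boxes. *Cd74*, *H2-Ab1* and *Ciita* were not among the promoters searched.

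Estimated counts, as deposited from kallisto, summed to between 7794162 and 17540075 per mouse over the joined genes, and a count of 3, used as the limit of detection, corresponded to 0.148 to 0.458 counts-per-million values (CPM). CPM values were scaled by edgeR's TMM method. Such limits cover counting error only, because reads were not collapsed to single molecules. *Lars2* alone held 9.34% to 34.4% of a library's counts. Neuronal genes were high in every library, with a summed level over 8 genes (*Sst*, *Snap25*, *Syt1*, *Gad1*, *Gad2*, *Slc32a1*, *Slc17a6* and *Rbfox3*) that lay between 2503 and 3277 CPM in females and between 1935 and 2510 CPM in males, so the labeled cell type's defining markers were present. Microglial genes were present too, with a summed level over 11 genes (among them *P2ry12*, *Tmem119*, *Csf1r* and *C1qa*) of 312 to 1722 CPM in females and 706 to 3372 CPM in males. The microglia sum was above the neuron sum in male 2 (3372 against 2000 CPM) and male 4 (3327 against 1935 CPM), and below it in the other mice. In female 1 the oligodendrocyte sum was 2071 CPM against 2614 CPM for neuron genes. The lists differ in their number of genes, so these sums are not shares of cells. In such bulk libraries fewer cells of a type and less RNA per cell cannot be told apart.

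The classical alpha and beta chains, which bind the peptide, were high in 2 mice and low in 4, where each had between 8 and 40 counts. *H2-Aa* (ENSMUSG00000036594.15, mm10 chromosome 17 from 34282744 to 34287823, minus strand), the alpha chain of I-A, was at 157, 2.14, 1.38 and 1.80 CPM in females 1 to 4 and at 23.3, 345, 26.4 and 1.39 CPM in males 1 to 4. Female 1 and male 2 were high, males 1 and 3 intermediate, and the other 4 mice low, so the sexes overlapped. *H2-Ab1* (ENSMUSG00000073421.6, chromosome 17 from 34257689 to 34269419, plus strand), the beta chain of I-A, had the same 2 mice at the top, with 194, 3.21, 1.97 and 2.70 CPM in females and 40.7, 512, 39.2 and 3.28 CPM in males. *H2-Eb1* (ENSMUSG00000060586.11, chromosome 17 from 34305867 to 34316674, plus strand), the beta chain of I-E, was at 115, 2.60, 0.839 and 1.26 CPM in females and at 24.0, 341.5, 22.3 and 1.01 CPM in males. The highest mouse exceeded the lowest 259-fold for *H2-Ab1* and 407-fold for *H2-Eb1*. The I-E alpha partner, listed as the pseudogene *H2-Ea-ps*, had 0 counts in 7 mice and 6 counts in male 2, and C57BL/6J mice are known to lack a working I-E alpha chain.

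**Figure D1:**
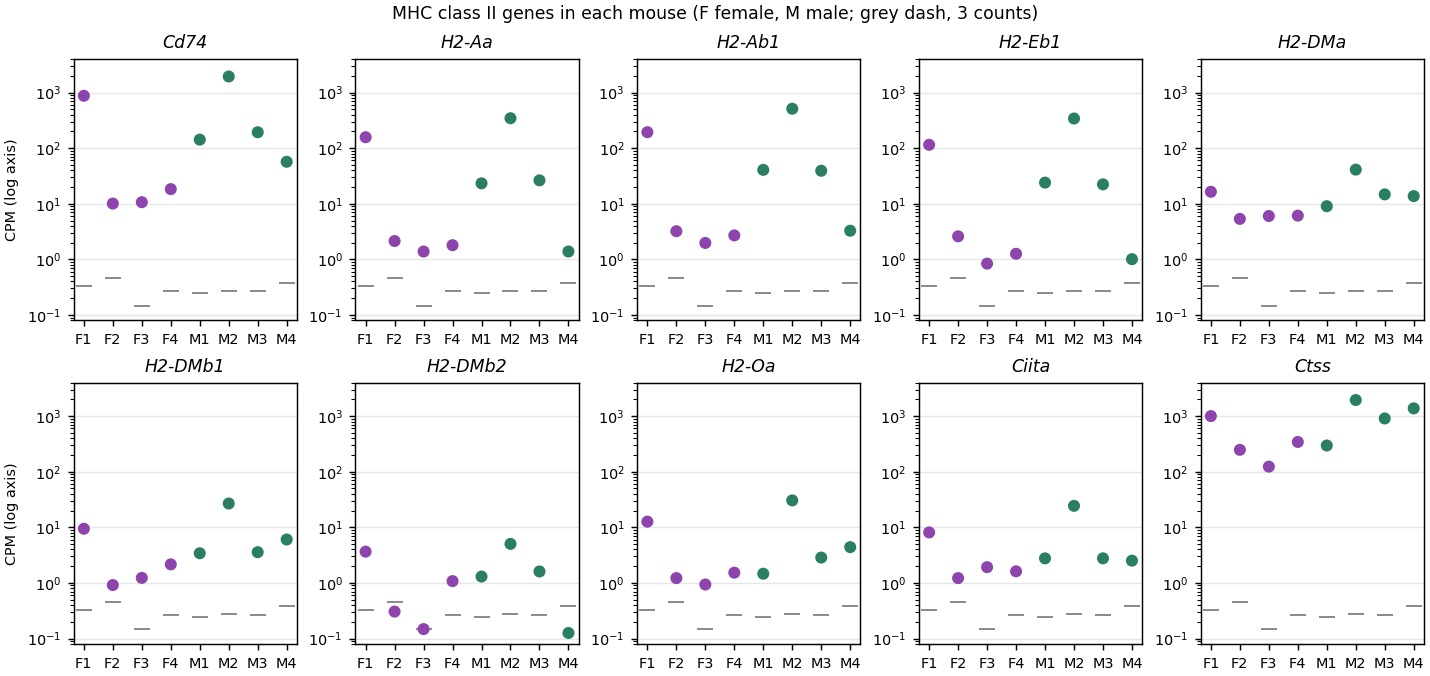
CPM of each of the 10 class II genes (log axis) in each mouse, females F1 to F4 in purple and males M1 to M4 in green, with a grey dash at the CPM of 3 counts. Male 2 is the highest mouse in all 10 panels and female 1 the second in 9, while for *H2-Aa*, *H2-Ab1* and *H2-Eb1* male 4 lies with the low females at 1.39, 3.28 and 1.01 CPM.

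*Cd74* (ENSMUSG00000024610.15, chromosome 18, plus strand), the invariant chain that stabilizes new class II molecules, was detected in every mouse. It was at 876, 10.1, 10.7 and 18.4 CPM in females 1 to 4 (7892, 66, 216 and 204 counts) and at 142, 1946, 193 and 56.9 CPM in males 1 to 4 (1749, 21236, 2162 and 452 counts). Every male lay above females 2, 3 and 4, and female 1 lay above 3 of the males. The highest mouse exceeded the lowest 193-fold. Relative to *Cd74*, the classical chains spanned a narrower range than on their own, with male 4 lowest for each. *H2-Aa* was 9.80% to 21.2% of *Cd74* in CPM in 7 mice and 2.43% in male 4. Likewise *H2-Ab1* was 14.7% to 31.8% in 7 mice and 5.75% in male 4, and *H2-Eb1* was 6.86% to 25.8% in 7 mice and 1.77% in male 4. By transcript, 1 form took 70.7% to 83.3% and another 13.9% to 27.3% of the gene's estimated counts in each mouse.

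*Ctss* (ENSMUSG00000038642.10, chromosome 3 from 95526786 to 95556403, plus strand), cathepsin S, which trims the invariant chain and is known as an abundant microglial protease, varied least among the abundant members. It was at 1002, 248, 124 and 343 CPM in females 1 to 4 and at 297, 1949, 909 and 1379 CPM in males 1 to 4, so that the highest was 15.8-fold above the lowest. Here male 4 was second, ahead of female 1, unlike in any other member. Against *Cd74* in CPM, *Ctss* ranged from 100.2% in male 2 and 114% in female 1 to 2423% in male 4 and 2459% in female 2.

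The chaperones that load and edit peptides were expressed at lower levels. *H2-DMa* (ENSMUSG00000037649.10, chromosome 17 from 34119541 to 34139101, plus strand), the alpha chain of H2-DM, was at 16.4, 5.35, 6.02 and 6.12 CPM in females and at 9.04, 41.2, 14.8 and 13.7 CPM in males. It had the smallest range of the 9 members for which a ratio was given (7.70-fold), and every male lay above females 2, 3 and 4. *H2-DMb1* (ENSMUSG00000079547.4, chromosome 17 from 34153072 to 34160230, plus strand), a beta chain of H2-DM, was at 9.44, 0.916, 1.23 and 2.16 CPM in females and at 3.42, 26.9, 3.58 and 6.05 CPM in males (29.3-fold). The second beta chain gene, *H2-DMb2* (ENSMUSG00000037548.15, chromosome 17 from 34143307 to 34151555, plus strand), was scarce. It had 33, 2, 3 and 12 counts in females and 16, 55, 18 and 1 counts in males, so that 3 mice were at or under 3 counts and no range is given as a ratio. *H2-DMb1* and *H2-DMb2* share sequence, with 517 stretches of 31 bases in common out of 1648 in *H2-DMb1* and 1741 in *H2-DMb2*, and how kallisto divided reads between them is uncertain. *H2-DMa* shares 333 of 3609 such stretches with *Brd2*, which overlaps it on the opposite strand, and the strand setting of the counting was not given in the sources used here.

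*H2-Oa* (ENSMUSG00000024334.9, chromosome 17 from 34092340 to 34095234, plus strand), the alpha chain of the H2-DM inhibitor H2-O and best known from B cells, was at 12.7, 1.22, 0.938 and 1.53 CPM in females and at 1.47, 30.5, 2.86 and 4.41 CPM in males. Male 2 and female 1 were again highest. Its beta partner *H2-Ob*, which is not among the 10 genes, was at 1.11, 0.306, 0.247 and 1.71 CPM in females and at 1.38, 7.97, 2.59 and 3.15 CPM in males. There female 1 was below all 4 males and below female 4.

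*Ciita* (ENSMUSG00000022504.10, chromosome 16 from 10480059 to 10528418, plus strand), the coactivator on which class II transcription depends, was at 8.10, 1.22, 1.92 and 1.62 CPM in females 1 to 4 and at 2.77, 24.4, 2.77 and 2.52 CPM in males 1 to 4. Male 4, low for the classical chains, had *Ciita* next to males 1 and 3, and every male lay above females 2, 3 and 4. *Ciita* is transcribed from separate promoters in different cell types, and its annotated transcripts fell into 3 groups by start. Of the estimated counts, 315.2 over all 8 mice went to the 2 transcripts that start between 10488178 and 10488279, 84.4 to the 3 that start between 10480059 and 10480164, and 89.3 to the 3 that start between 10489746 and 10489783. In male 2 the upstream, middle and downstream groups had 63.6, 138 and 64.6 estimated counts, while in female 1 they had 0, 68.7 and 3.9. The middle group thus led in both mice, and the split of the remaining counts differed between these 2 libraries. These are kallisto's divisions among transcripts that share most of their length, and were not tested. *Ciita* also overlaps *Dexi* on the opposite strand, with 215 of its 9449 stretches of 31 bases in common.

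To compare levels between genes per length, the deposited transcripts-per-million values (TPM) were used. Mean TPM over the 8 mice ran from 1093 for *Ctss* through 619 for *Cd74*, 188 for *H2-Ab1*, 132 for *H2-Eb1*, 129 for *H2-Aa*, 30.0 for *H2-DMa*, 14.6 for *H2-DMb1*, 12.4 for *H2-Oa* and 3.94 for *Ciita* to 2.24 for *H2-DMb2*. Each of the 9 gaps between neighbours in this order was smaller than the SD over mice of the higher gene (for example 870 TPM for *Ctss* and 1020 TPM for *Cd74*). In TPM *Ctss* was above *Cd74* in 7 of 8 mice and below it in male 2, at 2620 against 2875. For *H2-Eb1*, 23.1% of estimated counts were on protein-coding transcripts, with 37.9% on a single retained-intron transcript and 26.5% on a transcript annotated for nonsense-mediated decay. For *Cd74*, *H2-Aa* and *H2-Ab1* the shares on protein-coding transcripts were 99.8%, 94.5% and 81.6%.

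Measured as the SD of log2 CPM over the 8 mice, the spread of the 10 genes lay between percentiles 92.2 and 100 of all genes tested, with a median percentile of 98.4, and *Cd74* ranked 18 from the top. Male 2 was the highest mouse for all 10 genes, as it was for 18.5% of all genes tested. Male 2 followed by female 1 was the order for 9 of 10, against 2.70% of all genes. The genes were chosen on this spread, so these counts have no test. Between the 2 deposited blocks of values of a mouse, levels differed at most 1.43-fold for *Cd74*, 1.49-fold for *H2-Aa*, 1.34-fold for *H2-Ab1* and 1.10-fold for *Ctss* in mice with over 3 counts in both, much less than between mice. *H2-Eb1*, at few counts in the low mice, differed at most 2.45-fold.

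To test if the class II genes differed between females and males, they were compared in a fit across all 15194 genes with sex as the only term (edgeR's quasi-likelihood test, Benjamini-Hochberg adjusted over all genes). None of the 10 genes passed at an adjusted p under 0.05, where 0.158% of all genes did (24 genes, 0.0461% higher in males and 0.112% higher in females). At an unadjusted p under 0.05 the count was 1 of 10, against 20.5% of all genes. DESeq2 called 0 of the 4 members for which it gave an adjusted p, against 7.36% of all genes (3.37% higher in males). It gave no p-value at all for *Cd74*, *H2-Aa*, *H2-Ab1*, *H2-Eb1* and *Ciita*, as it does where 1 sample has an extreme count (73 genes in all), and no adjusted p for *H2-DMb2*. The sexes overlapped in all 10 genes, while they did not overlap in 10.4% of all genes tested. Because the genes were chosen for a wide spread over these same mice, large variance within a sex was favoured by that choice. The lack of calls and the overlap therefore describe the 10 genes and do not show that the sexes are alike.

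Fitted log2 fold changes of females over males were below 0 for all 10 genes, with a median of -1.35, against 50.6% of genes below 0 and a median of 0.00 over all genes tested. Other non-neuronal lists lay below 0 in the same way, with medians of -1.43 over 11 of 11 microglia genes below 0, -1.46 over 8 of 8 MHC class I genes and -1.29 over 13 of 13 interferon gamma response genes, and with 5 of 5 astrocyte genes (-0.80) and 5 of 5 oligodendrocyte genes (-0.73). Not every gene was below 0 in the endothelial (3 of 4, median -0.24) and dendritic cell (3 of 4, -0.49) lists. The same held for reactive microglia (5 of 6, -1.78) and T and NK cell genes (7 of 8, -1.51). For neuron genes 0 of 8 were below 0 and the median was 0.40. No gene of these lists passed by edgeR. Intervals were wide. For *Cd74*, females averaged 229 ± 432 CPM and males 585 ± 909 CPM (mean ± SD, n = 4 each), and the log2 fold change was -1.36 ± 1.56 (SE) with a 95% interval from -4.87 to 2.16 (edgeR adjusted p = 0.653, 2-sided exact permutation p = 0.229). For *Ctss*, females averaged 429 ± 392 CPM and males 1134 ± 702 CPM, and the log2 fold change was -1.40 ± 0.68 with an interval from -2.92 to 0.12 (edgeR adjusted p = 0.272, exact permutation p = 0.143). *H2-DMa*, the gene with the unadjusted p under 0.05, averaged 8.48 ± 5.31 CPM (females) and 19.7 ± 14.5 CPM (males), and its log2 fold change was -1.22 ± 0.52 with an interval from -2.40 to -0.04 (edgeR p = 0.0439, adjusted p = 0.234, exact permutation p = 0.114). Changes of the other 7 genes lay between -1.71 (*H2-Eb1*) and -0.68 (*H2-DMb2*), with adjusted p between 0.343 and 0.742. With 4 mice against 4, the exact test cannot go below 0.0286.

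The direction depended on single mice for 7 of the 10 genes. Without male 2, the log2 fold change rose above 0 for 7 of the 10 genes (*Cd74* 0.80, *H2-Aa* 1.23, *H2-Ab1* 0.84, *H2-Eb1* 0.90, *H2-DMb2* 0.29, *H2-Oa* 0.49 and *Ciita* 0.25) and stayed below 0 for *H2-DMa* (-0.56), *H2-DMb1* (-0.34) and *Ctss* (-1.01). Without female 1 it was lower than with all mice for all 10, at -5.48 for *Cd74*, -5.87 for *H2-Aa*, -5.89 for *H2-Ab1*, -6.15 for *H2-Eb1*, -2.31 for *Ciita* and -2.25 for *Ctss*, and again no gene passed (edgeR adjusted p for *Cd74* = 0.0581). Among those 7 mice the 4 males lay above the 3 females for *Cd74*, *H2-Ab1*, *H2-DMa*, *H2-DMb1* and *Ciita*. Male 4 lay among the females for *H2-Aa* and *H2-Eb1*. For *H2-Ab1* the gap was small, at 3.28 CPM in male 4 against 3.21 CPM in female 2. The share of all genes separated in this way in those 7 mice was not computed, so these separations are a description. Leaving out female 1 also raised the number of all genes that passed by edgeR, from 24 to 415.

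**Figure D2:**
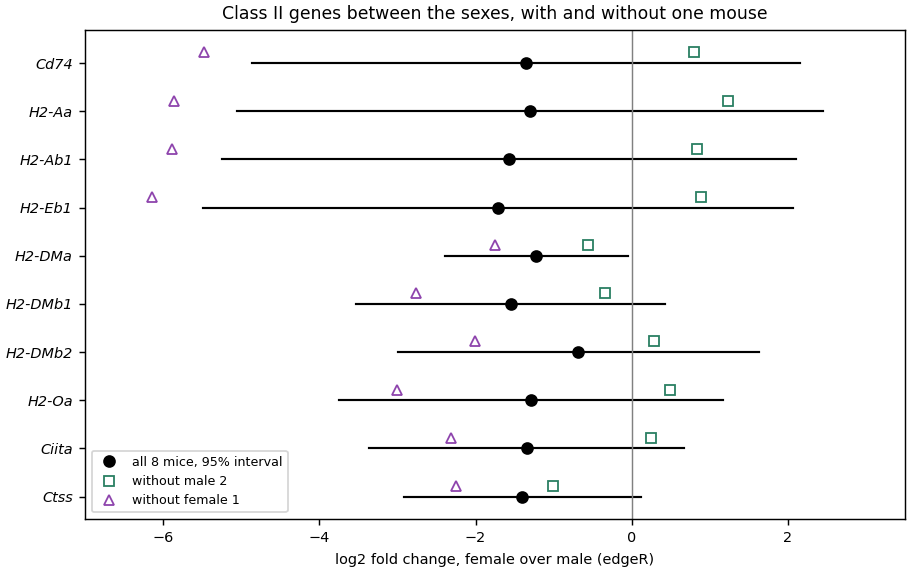
Log2 fold change of females over males for each class II gene by edgeR, as black points with 95% intervals for all 8 mice, open green squares without male 2 and open purple triangles without female 1. All 10 points lie below 0, while 7 of the 10 squares lie above 0 and the triangles reach -6.15.

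Other genes of the class II pathway were taken as a list, which held the partner chains *H2-Ob* and *H2-Eb2*, the RFX, NF-Y and CREB factors, lysosomal proteases, the ubiquitin ligases *March1* and *March8*, and costimulatory genes. Of 22 genes, 21 were measured (*Ifi30* was not analysed here) and 20 tested, and none passed (edgeR), with 17 below 0 and a median log2 fold change of -0.68. By DESeq2, *Ctsl* (-0.81, adjusted p = 0.00569) and *H2-Ob* (-2.16, adjusted p = 0.0422) passed. Summed over the list the level ranged 3.53-fold, from 1073 CPM in female 3 to 3784 CPM in male 2, and male 2 was the highest mouse for 8 of the genes, in none of them followed by female 1. *Rfx5*, a subunit of the X box factor, lay between 25.6 and 35.5 CPM in all mice. *Nfyb*, a subunit of the Y box factor, lay between 31.99 and 49.6 CPM. *Nfya*, another subunit of the Y box factor, ranged more widely, from 10.6 CPM in female 3 to 35.3 CPM in male 4. The proteases *Ctsb* and *Ctsd*, general to lysosomes, lay between 331 and 1054 CPM and between 187 and 1276 CPM, and *Cd86*, a costimulatory ligand, between 2.86 and 53.3 CPM. So *Rfx5* and *Nfyb* varied little and *Nfya* varied more. *Cd86*, *H2-Ob* and the protease *Ctsh* (3.16 to 68.8 CPM) spanned a wider range than *H2-DMa* or *Ctss* did.

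To relate the spread of *Cd74* over mice to cell markers, its log2 CPM was correlated with the log2 of the summed CPM of 8 marker lists across the 8 mice, with exact permutation p over 40320 orders, adjusted over the 8 lists. Within a sex there were 4 mice, too few for a correlation. Members and lists come from the same libraries and share their depth and scaling. Both were also chosen with earlier results of these data known. Passing the threshold below therefore describes these 8 mice and is no independent support for a relation.

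Dendritic cell markers (9 genes, such as *Flt3*, *Zbtb46*, *Xcr1* and *Cd209a*) summed to 48.1, 23.5, 16.9 and 19.6 CPM in females and to 22.4, 133, 31.3 and 42.6 CPM in males. Against *Cd74*, r was 0.840 (exact permutation p = 0.00456, adjusted p = 0.0122) and rho was 0.762 (exact permutation p = 0.0368, adjusted p = 0.0490). Without female 1 and male 2, the mice farthest from the median of the list, r was 0.546 (exact permutation p = 0.276, adjusted p = 0.316), and without male 2 alone it was 0.746 (exact permutation p = 0.0603, adjusted p = 0.102). Without female 1 alone r was 0.852 (exact permutation p = 0.0194, adjusted p = 0.0259), so of these mice the relation depended on male 2. It also depended on 1 gene, since *Itgax*, the integrin CD11c, known from activated microglia as well, made up 56.1% of the list's sum. Without *Itgax* the list lay between 14.6 and 33.8 CPM and r was 0.519 (exact permutation p = 0.186). Of the markers that define dendritic subsets, *Cd209a* had 0 counts in 7 mice and 1 count in female 4, *Clec10a* stayed at or under 6 counts, and *Clec9a* stayed between 0.489 and 1.83 CPM in all mice. *Xcr1* was at 3.00 CPM in female 1 and 3.57 CPM in male 2, and between 0.0814 and 1.07 CPM in the other 6. *Zbtb46* lay between 6.88 CPM in female 1 and 15.3 CPM in male 2.

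B cell markers (12 genes) summed to 126, 7.18, 8.68 and 68.2 CPM in females and to 27.1, 598, 328 and 29.7 CPM in males (r = 0.835, exact permutation p = 0.0123, adjusted p = 0.0196; rho = 0.881, exact permutation p = 0.00724, adjusted p = 0.0193). Without males 2 and 3 r was 0.753 (exact permutation p = 0.0944, adjusted p = 0.192), and the adjusted p was also above 0.05 without male 2 alone (r = 0.737), female 2 (r = 0.788) or female 3 (r = 0.793). Immunoglobulin transcripts carried the sum. *Ighm*, the constant part of IgM, was 61.4% of it, at 110 CPM in female 1, 398.5 CPM in male 2 and 180 CPM in male 3, and *Igkc*, the kappa light chain, was at 57.9 CPM in female 4, 175 CPM in male 2 and 141 CPM in male 3 but at 0.999 CPM in female 1, where class II was high. Markers of the B cell lineage itself were at or near 0. *Pax5* had 0 counts in all females and at most 8 in a male. *Ms4a1* (CD20) stayed at or below 1.01 CPM. With *Ighm* and *Igkc* left out, the other 10 markers summed to 15.0, 4.12, 5.53 and 5.67 CPM in females and to 5.94, 24.3, 7.24 and 11.5 CPM in males, with r = 0.867 (exact permutation p = 0.00561). Of these, *Cd22*, which microglia are also known to express, was at 10.1 CPM in female 1 and 13.8 CPM in male 2.

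Border macrophage markers (9 genes) did not follow *Cd74* past the threshold (r = 0.541, exact permutation p = 0.164, adjusted p = 0.164; rho = 0.571, exact permutation p = 0.151, adjusted p = 0.151; r = 0.657 without males 2 and 4). They summed to 27.1, 16.2, 13.3 and 20.2 CPM in females and to 15.6, 74.8, 40.0 and 99.4 CPM in males. *Stab1* alone was 53.9% of the sum, at 45.0 CPM in male 2 and 45.6 CPM in male 4, so the result is largely that of 1 gene. Male 4 was highest here and low in the classical class II chains, with *Siglec1* at 28.6 CPM and the mannose receptor *Mrc1* at 12.5 CPM against 6.69 and 7.06 CPM in male 2. Without male 4, r was 0.804 (exact permutation p = 0.0256, adjusted p = 0.0258). *Lyve1* and *Pf4*, defining markers of these cells, stayed at or below 0.917 and 0.626 CPM. By DESeq2, *Mrc1* (log2 fold change of females over males -2.18, adjusted p = 0.00176) and *Siglec1* (-2.49, adjusted p = 0.00319) passed, both higher in males, and so did 3 neuron genes, all higher in females, *Snap25* (0.48, adjusted p = 0.00400), *Syt1* (0.55, adjusted p = 0.000741) and *Rbfox3* (0.68, adjusted p = 9.28e-05), where DESeq2 called 7.36% of all genes. By edgeR no gene of any marker list passed.

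Monocyte and neutrophil markers (6 genes) summed to 55.0, 5.19, 5.08 and 7.02 CPM in females and to 10.02, 125, 16.9 and 18.9 CPM in males. Here r was 0.946 (exact permutation p = 0.000496, adjusted p = 0.00327) and rho was 0.905 (exact permutation p = 0.00456, adjusted p = 0.0183), and without female 1 and male 2 r was 0.831 (exact permutation p = 0.0611, adjusted p = 0.192). *Lyz2*, lysozyme, which many myeloid cells make, was 89.1% of the sum. The neutrophil genes *S100a8* and *S100a9* had at most 4 counts in a mouse. Without *Lyz2* the list stayed between 1.07 and 11.8 CPM, and ranked the 8 mice as *Cd74* did (rho = 1.00). That order rests partly on few counts. In females 2, 3 and 4 the rest of the list was at 1.07, 1.18 and 1.26 CPM. There *Ccr2* had 2, 21 and 5 counts and *Ly6c2* 5, 3 and 9. *Cd74* itself was close in females 2 and 3 (10.1 and 10.7 CPM). *Plac8* was highest in male 4, with 11 counts against 7 in male 2.

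Microglial genes missed the threshold by r and passed it by rho (r = 0.715, exact permutation p = 0.0504, adjusted p = 0.0576; rho = 0.762, exact permutation p = 0.0368, adjusted p = 0.0490; r = 0.455 without female 3 and male 2). With the list taken as its mean log2 CPM, rho was 0.667 (exact permutation p = 0.0831, adjusted p = 0.0831), so the call by rho was lost too. Without male 4, r was 0.873 (exact permutation p = 0.0149, adjusted p = 0.0238). The 11 genes summed to 1722, 619.5, 312 and 879 CPM in females and to 706, 3372, 1963 and 3327 CPM in males. Genes of reactive microglia (8 genes, 84.3% of their sum *Apoe*) had r = 0.859 (exact permutation p = 0.00699, adjusted p = 0.0140) and rho = 0.905 (exact permutation p = 0.00456, adjusted p = 0.0183), and r = 0.764 without female 3 and male 2 (exact permutation p = 0.0958, adjusted p = 0.192) and 0.791 without male 2 alone (exact permutation p = 0.0333, adjusted p = 0.0889). Among them *Cst7*, an inhibitor of lysosomal proteases, was at 16.8 CPM in female 1 and 54.2 CPM in male 2 and between 0.395 and 6.55 CPM in the other mice. T and NK cell markers (14 genes) had r = 0.719 (exact permutation p = 0.0282, adjusted p = 0.0376) and rho = 0.691 (exact permutation p = 0.0694, adjusted p = 0.0793), with r = 0.579 without males 2 and 4 (exact permutation p = 0.247, adjusted p = 0.316). Without any 1 of females 2, 3 and 4 and males 1, 2 and 3 the adjusted p was above 0.05, and r was lowest without male 2 (0.463). They summed to 68.8 CPM in male 2 and to between 13.1 and 27.9 CPM in the other 7 mice. The largest part was *Cd3d*, 28.9% of the sum, whose own r with *Cd74* was -0.366. *Cd3e*, a chain of the T cell receptor complex, was at 8.07 CPM in male 2 and 2.44 CPM in female 1 and had 0 counts in 3 mice, and in male 2 *Cd3g* was at 12.8 CPM, *Cd4* at 14.3 CPM and *Nkg7* at 5.59 CPM. The gene for interferon gamma itself, *Ifng*, stayed at or below 0.642 CPM. It was highest in male 2 (7 counts), with 4 counts in male 3 and at most 1 count in any other mouse.

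Genes induced by interferon gamma followed *Cd74* past the threshold. The 13 genes summed to 928, 113, 86.5 and 110 CPM in females and to 470, 1534, 397 and 543 CPM in males (r = 0.951, exact permutation p = 0.000819, adjusted p = 0.00327; rho = 0.833, exact permutation p = 0.0154, adjusted p = 0.0308). With females 3 and 4 left out r was 0.938 (exact permutation p = 0.00972, adjusted p = 0.0778), and with any single mouse left out it stayed between 0.927 and 0.991. Male 2 was highest for 12 of the 13 and was followed by female 1 for 11. The chemokine *Cxcl9* was at 88.1 CPM in female 1 and 128 CPM in male 2 and between 0.720 and 0.916 CPM in females 2 to 4. In male 4 the list summed to 543 CPM, above males 1 and 3, although *H2-Aa* was at 1.39 CPM in male 4 against 23.3 and 26.4 CPM in males 1 and 3. MHC class I genes (8 genes), which present peptides from inside the cell, had male 2 highest in 8 of 8 and male 2 followed by female 1 in 6, and summed to 1523, 267, 159 and 325 CPM in females and to 687, 3272, 1045 and 1446 CPM in males. The part of any of these cell types in the class II levels was not tested.

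**Figure D3:**
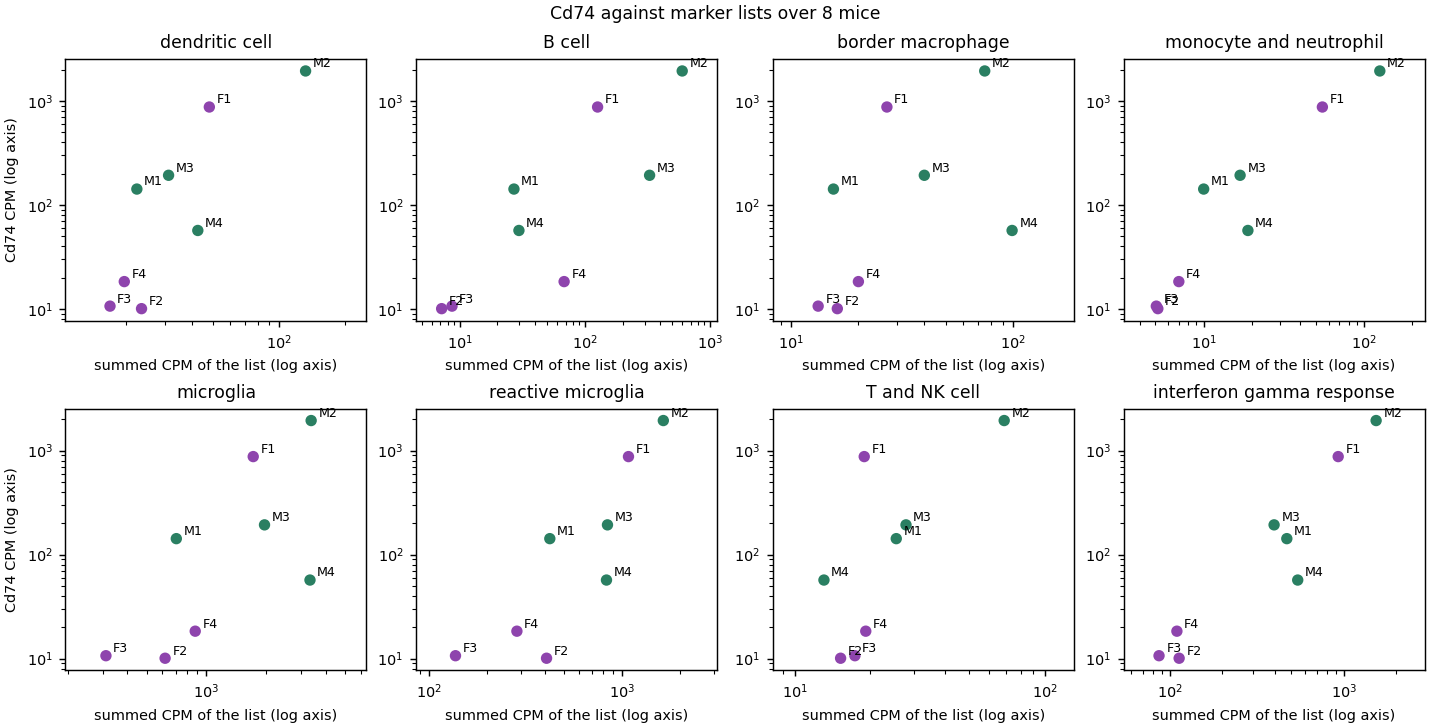
*Cd74* CPM against the summed CPM of 8 marker lists (both log axes), 1 point per mouse, females in purple and males in green. *Cd74* rises with the monocyte and neutrophil (r = 0.946) and interferon gamma response lists (r = 0.951), and male 4 lies to the lower right in the border macrophage and microglia panels.

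Correlations of the other 9 members with the lists are given as a description with no p. Over the 10 genes, r with the monocyte and neutrophil list ran from 0.765 to 0.990, with the interferon gamma list from 0.695 to 0.951, with the dendritic cell list from 0.633 to 0.966, with the B cell list from 0.756 to 0.838, with the microglia list from 0.461 to 0.991 and with the border macrophage list from 0.203 to 0.909. *Ctss* stood at the high end for microglia.

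Set against microglial RNA, class II genes and *Ctss* parted. *Ctss* per CPM of the microglia list lay between 0.391 and 0.582 in all 8 mice, a 1.49-fold range. *Cd74* per CPM of the same list was 0.509, 0.0163, 0.0342 and 0.0209 in females and 0.202, 0.577, 0.0985 and 0.0171 in males, a 35.5-fold range, and the sum of *H2-Aa*, *H2-Ab1* and *H2-Eb1* was 0.271, 0.0128, 0.0135 and 0.00655 in females and 0.125, 0.356, 0.0448 and 0.00170 in males, a 209-fold range. Males 2 and 4 were set side by side after their values were seen. Their microglia lists differed 1.01-fold, their neuron lists 1.03-fold and *Ctss* 1.41-fold, while male 2 was 34.2-fold above male 4 in *Cd74*, 249-fold in *H2-Aa*, 156-fold in *H2-Ab1* and 339-fold in *H2-Eb1*. The other members lay between, at 3.00-fold for *H2-DMa*, 4.44-fold for *H2-DMb1*, 6.92-fold for *H2-Oa* and 9.68-fold for *Ciita*. Other lists also stood higher in male 2, by 20.1-fold for B cell, 6.63-fold for monocyte and neutrophil, 5.25-fold for T and NK cell, 3.12-fold for dendritic cell, 2.83-fold for interferon gamma response and 2.26-fold for MHC class I, while the border macrophage list stood lower (0.753-fold). These 2 libraries have no replicates of their own, and the comparison describes them alone. With the mean level of the microglia list added as a term, again no member passed. The log2 fold change came closer to 0 for all 10 genes or passed it, to -0.06 for *Cd74*, -0.19 for *H2-Ab1*, -0.18 for *H2-Eb1*, -0.24 for *H2-DMa* and -0.03 for *H2-DMb1*, and to above 0 for *H2-Aa* (0.24), *H2-DMb2* (0.30), *H2-Oa* (0.94), *Ciita* (0.09) and *Ctss* (0.17).

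**Figure D4:**
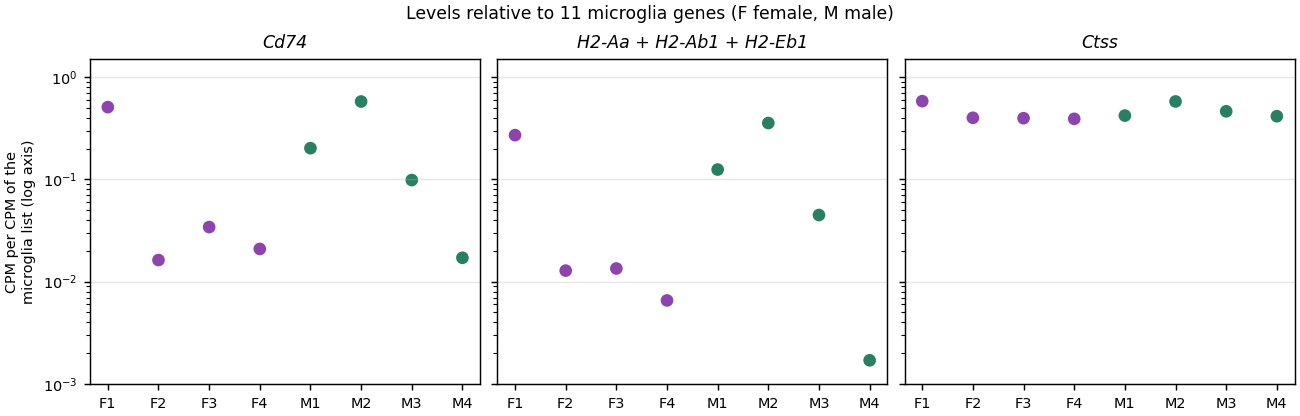
CPM of *Cd74*, of the sum of *H2-Aa*, *H2-Ab1* and *H2-Eb1*, and of *Ctss*, each divided by the summed CPM of 11 microglia genes (log axis), in each mouse. *Ctss* stays within 1.49-fold across mice, *Cd74* spans 35.5-fold, and the classical chains span 209-fold with male 4 lowest.

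To find the genes whose pattern over mice was most like that of *Cd74*, r of log2 CPM was taken against each of the other 15193 genes tested. The median r was -0.02 and 119 genes exceeded 0.9. Among the members, *H2-Ab1* ranked 13 (r = 0.969), *H2-Aa* 25 (0.955), *H2-Eb1* 49 (0.940), *H2-DMb1* 61 (0.927), *H2-DMa* 66 (0.923), *Ciita* 72 (0.920), *H2-Oa* 132 (0.895), *H2-DMb2* 224 (0.864) and *Ctss* 632 (0.792). The 10 other genes with the highest r were *Psmb9* (0.983), *Iigp1* (0.982), *C4b* (0.981), *Cd274* (0.978), *Itgal* (0.978), *Dnase1l3* (0.977), *Il12rb1* (0.9753), *Gbp4* (0.9749), *Gbp10* (0.974) and *Igtp* (0.973). *Psmb9*, an immunoproteasome subunit, was at 11.99 CPM in female 1 and 19.3 CPM in male 2 and between 0.611 and 4.397 CPM elsewhere. *C4b*, complement C4, was at 352 and 536 CPM in those mice and between 14.2 and 121 CPM elsewhere. *Itgal*, the integrin LFA-1 of leukocytes, was at 19.9 and 50.3 CPM against 0.543 to 6.97 CPM elsewhere, and at 2.02 CPM in male 4.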

How the data were processed

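RNA of sorted TN SST neurons from 4 female and 4 male *Sst-Cre* mice was measured, 1 library per mouse (SMARTer Stranded Total RNA-Seq kit v2, single-end). The authors assigned reads to the mm10 transcriptome with kallisto (0.46.2 per the labels) and deposited an estimated count, not normalized, and a TPM value for each transcript, in 2 blocks per mouse. What the blocks are, and the strand setting, was not given in the sources used here. Counts of both blocks were summed and TPM averaged over the blocks, where the design had assumed 1 TPM value.

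Of 118489 transcripts, 116728 were joined to genes with GENCODE M21, and the other 1761 (0.429% to 0.611% of counts) were left out. Counts were rounded. The sexes were tested by quasi-likelihood in edgeR 4.0.16 (with limma 3.58.1, R 4.3.3), after edgeR's default filter and TMM scaling, with p-values adjusted over 15194 genes by Benjamini-Hochberg. DESeq2 1.42.0 was an alternative. Replicates are separate mice, and the labels give no batch. Correlations and exact permutation tests, all 2-sided, used Python 3.11.15 with scipy 1.17.1 (pseudocount 0.5 CPM, and a prior count of 2 for log2 CPM of single genes). The test was tried on simulated counts.

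Members and marker lists were chosen with earlier results of these data known. Named genes were every member, per list the genes past a test or else the highest and the defining markers at or near 0, and the 10 genes most like *Cd74*. *H2-Ea-ps*, *Cd22*, *Cst7*, *Cxcl9*, *Ifng*, *Rfx5*, *Nfya*, *Nfyb*, *Cd86*, *Zbtb46*, *Ctsh*, *Cd3d*, *Cd3e*, *Cd3g*, *Cd4*, *Nkg7*, *Ccr2*, *Ly6c2*, *Plac8* and *Stab1* were added after their values were seen. The 15 lists included astrocyte genes (74.7 to 449.7 CPM summed), oligodendrocyte genes (458 to 2071 CPM) and endothelial genes (21.2 to 73.1 CPM). Values of some list genes are not reported here.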

Additional observations from a re-analysis of the deposited data

Results flagged for a closer look

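Within each sex, the gap between an extreme mouse and its nearest neighbour was divided by the range of the 4 mice on the log2 scale, and a ratio above 0.829, Dixon's 95% critical value for 4 samples, set a mouse apart. Over 36 groups of 4 mice (the members and the 8 marker lists in each sex), 8 passed, of which 6 were members. Chance flags about 1 group in 20, but the members were chosen for their spread over these mice and the groups hold the same mice, so the ratios are a description and are not set against that rate.

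Female 1 lay above the other females for *Cd74* (ratio 0.869), *H2-Aa* (0.924), *H2-Ab1* (0.907), *H2-DMa* (0.883) and *H2-Oa* (0.844). It did so too for the summed monocyte and neutrophil markers (0.864) and the summed interferon gamma response genes (0.888). Male 2 lay above the other males for *Ciita* (0.962).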

How the results depend on the processing

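No member passed between the sexes in any setting tried. The number of all genes that passed moved with the tool (1014 by DESeq2 against 24), without normalization factors (10), with the mean of the microglia list as a term (13) and from 8 to 415 when each mouse was left out in turn, 415 being without female 1 and 411 without male 1. Log2 fold changes of members turned positive in 12 of the refits and kept their direction in the other 160. They turned positive without male 2 for the 7 genes whose highest values follow and with the microglia term for *H2-Aa* (0.24), *H2-DMb2* (0.30), *H2-Oa* (0.94), *Ciita* (0.0853) and *Ctss* (0.17). Without each mouse in turn, log2 fold changes ran from -5.48 to 0.80 for *Cd74*, -5.87 to 1.23 for *H2-Aa*, -5.89 to 0.84 for *H2-Ab1*, -6.15 to 0.90 for *H2-Eb1*, -2.01 to 0.29 for *H2-DMb2*, -3.01 to 0.49 for *H2-Oa* and -2.31 to 0.25 for *Ciita*. The cause was not tested.

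Same-numbered females and males deviated from their group means with correlations of -0.396, -0.156, 0.0356 and 0.0719. Among the females, only female 4 correlated best with the male of its own number. Female 1 did so with male 2 (0.395), female 2 with male 1 (0.103) and female 3 with male 1 (0.416). Such values cannot decide whether same-numbered mice were handled together, which the labels do not give. A fit with the replicate number as a block left 1 gene and no member.

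Correlations of *Cd74* lost their adjusted p under 0.05 without the 2 farthest mice for dendritic (0.546), B cell (0.753), monocyte and neutrophil (0.831), reactive microglia (0.764), T and NK cell (0.579) and interferon gamma lists (0.938), in TPM for the B cell list (0.728) and without *Itgax* for the dendritic list (0.519). Without each mouse in turn, r ranged from 0.746 to 0.890 for the dendritic list, 0.737 to 0.904 for B cell, 0.339 to 0.804 for border macrophage, 0.919 to 0.977 for monocyte and neutrophil, 0.604 to 0.873 for microglia, 0.791 to 0.904 for reactive microglia, 0.463 to 0.883 for T and NK cell and 0.927 to 0.991 for interferon gamma. The border macrophage (0.804) and microglia (0.873) lists passed by r only without male 4, and male 2 was the mouse without which the dendritic, B cell, reactive microglia and T and NK cell lists all lost their call. By rho, the dendritic and microglia lists, which passed with all mice (0.762 each), also lost their call when each list was taken as its mean log2 CPM (rho 0.714, adjusted p = 0.0768, and rho 0.667, adjusted p = 0.0831, exact permutation tests). The lists without *Itgax*, *Lyz2* or the immunoglobulin genes, and these single-mouse exclusions, were chosen after seeing the data. Depth limits *H2-DMb2* and the low mice of the classical chains, where few reads carry a value.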
